A study of Mus musculus with 39 samples.

Results

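Binding of the glucocorticoid receptor (GR) to chromatin was compared between 7438 mouse mammary cells given dexamethasone (Dex) and the same cells without hormone. The members are the rows of the pair of GR ChIP-seq lists of 7438 cells whose names give Dex and untreated. There were 12084 sites with Dex and 143 without hormone, 12227 in all, among the 91220 sites of the 16 lists used here. Every site of both lists is 150 bp wide. The study has 39 samples and followed GR and the estrogen receptor (ER) in cells that were untreated or received Dex, estradiol (E2) or both.

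All the cells carry a GFP-tagged GR and a Cherry-tagged ER, each driven by a tetracycline-regulated promoter and switched on by withdrawing tetracycline on the day before hormone. They were kept in charcoal-dextran serum, which is depleted of steroids. Hormones were given at 100 nM for 30 min. The Afos cells mentioned below are 7438 cells that express Afos from the same kind of promoter, with 2 lists for each treatment. Chromatin was recovered with a cocktail of antibodies against GR, and no source used here says what part of the signal came from GR of the cells' own gene. The list named for untreated cells is filed under a sample that the labels call Dex+E2, and the list named for both hormones under a sample that the labels call untreated. The 2 ER lists with these names show the same conflict. The list names were followed for every 7438 list, and the Dex list has no conflict. Each treatment of 7438 had 1 list, so no difference between Dex and untreated cells has a replicate check or a test. The labels give each of these treatments a replicate 2 sample as well, which has no list. Whether a list draws on both samples is not known here. Depth is unknown, since the lists give sites and no read totals.

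GR is a steroid receptor that rests in the cytoplasm, bound to chaperones, until a glucocorticoid enters its ligand pocket. The ligand-bound receptor moves into the nucleus and binds glucocorticoid response elements, largely in chromatin that other factors have already opened. Dex is a synthetic glucocorticoid with high affinity for GR. ER is the related receptor for estrogens, and AP-1 factors are among the proteins that open chromatin for GR in mammary cells. The A-Fos protein blocks the binding of AP-1 to DNA.

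With Dex, GR sites were listed all over the genome, and without hormone few were. The Dex list held 84.5 times as many sites as the untreated list. A binomial interval of 71.7 to 100 around that ratio covers counting error only. With the sample labels followed in place of the list names, the untreated list would be that of 9503 sites and the ratio 1.27. Both lists have gaps in their numbering of sites: the 12084 Dex sites carry numbers up to 13933, and the 143 untreated sites numbers up to 339. The ratio of these highest numbers was 41.1. The sites behind the missing numbers are not analysed here. In the Afos cells the same 2 treatments gave 8873 and 5136 GR sites with Dex, against 95 and 315 without hormone, so both Dex lists were longer than both untreated ones there too.

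The sites listed without hormone were also weaker. Strength is given by 3 values of the authors for each site: the highest tag density, the average tag density and a z-score. The highest tag density ran from 10.0 through a median of 20.9 to 759 with Dex, and from 10.0 through a median of 12.1 to 43.0 without hormone. The average tag density had a median of 16 with Dex and 9 without hormone, with highest values of 690 and 37. The z-score had a median of 54.5 with Dex and 37.1 without hormone, with highest values of 610 and 69.1. The upper quartile of the highest tag density was 37.5 with Dex and 15.0 without hormone.

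**Figure D1:**
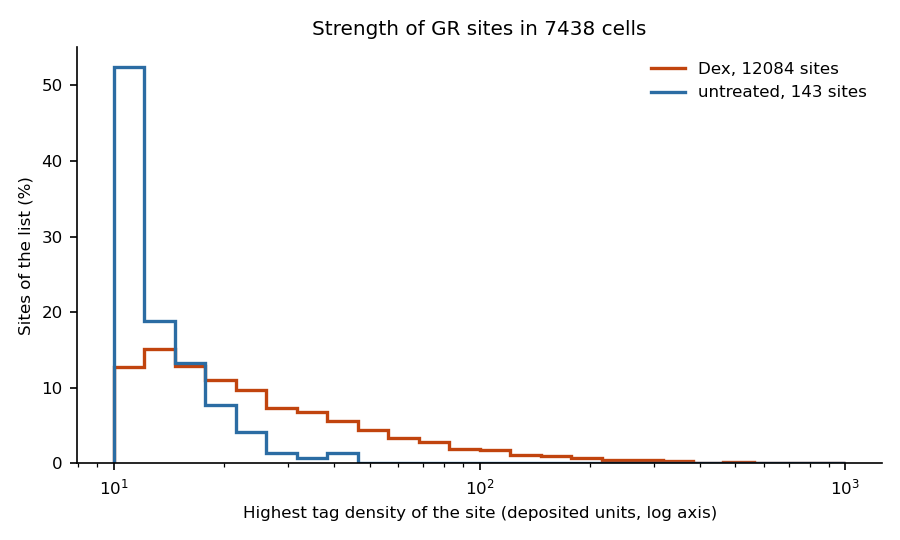
Share of the sites of each list (vertical axis, %) by highest tag density (horizontal axis, log scale, in deposited units), for the Dex list and the untreated list of 7438 cells. The untreated list is crowded near the lower limit of 10.0 and ends at 43.0, while the Dex list reaches 759.

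The upper part of the Dex range had no counterpart without hormone. A highest tag density of at least 20 was reached by 6337 Dex sites (52.4%) and by 16 untreated sites (11.2%). There were 2524 Dex sites (20.9%) above the strongest untreated site, and 755 of at least 100, against none without hormone. By z-score, 4107 Dex sites (34.0%) stood above the highest untreated value. How tag density was scaled between libraries is not given in the sources used here, so these values are set side by side as deposited.

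The 6 strongest Dex sites were absent from the untreated list, as were 98.9% of all Dex sites. The first lay at chr17:28649867-28650017 (build mm9, as are all positions here), with a highest tag density of 759 and an average of 690. In the other GR lists it had 463 with both hormones in 7438, 621 and 360 with Dex in the Afos lists, and 634 and 434 with both hormones there. No untreated or E2 list of GR held it, in either cell line.

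The next Dex sites showed the same pattern. The second, at chr17:56248206-56248356, had 744 with Dex and 528 with both hormones in 7438, and 446 and 242 with Dex in the Afos lists. The third, at chr4:134745771-134745921, had 743 and 488 in 7438 and 336 and 189 in the Afos lists with Dex. It was also an ER site with E2 alone, at 69.3, and with both hormones, at 171. The other 3 of the first 6 lay at chr11:101561873-101562023 (675), chr2:152631932-152632082 (662) and chr11:43771809-43771959 (623). All 6 were present in both Afos Dex lists, in the GR list with both hormones and in the ER list with both hormones, and in no GR list of untreated cells. Of the 1209 strongest Dex sites, the Afos Dex lists held 99.8% and 99.1%. In 7438 the lists of both hormones held 99.3% for GR and 65.0% for ER. No untreated GR list held more than 2.48% of these sites.

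Nearly every untreated site was at a Dex site. Of the 143 untreated sites, 134 overlapped a Dex site by at least 1 bp (93.7%, exact binomial 95% interval 88.4 to 97.1%). In the other direction, 135 of the 12084 Dex sites overlapped an untreated site (1.12%, interval 0.937 to 1.32%), because 1 untreated site met 2 Dex sites. The remaining 11949 Dex sites (98.9%) were listed with Dex alone. The 2 lists placed shared sites closely: their centres lay a median of 22.5 bp apart (quartiles 8.25 and 33.8 bp), and 118 of 134 pairs lay within 50 bp.

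Shared sites were denser with Dex. The highest tag density over the 134 pairs had a median of 12.1 without hormone and 38.7 with Dex. It was higher with Dex in 131 pairs and lower in 3. The ratio of the deposited values had a median of 2.95 (quartiles 1.98 and 4.34). The z-score was higher with Dex in 126 pairs, with medians of 37.4 and 76.9. Sites whose untreated density was under the lower limit are not in the list, so these ratios describe the listed pairs only.

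The ratio was spread widely, and density without hormone was weakly related to density with Dex in the listed pairs. Across the 134 pairs Spearman's rho between the 2 densities was 0.30 (Pearson's r of the logarithms 0.23), a description across sites that share a library. The untreated densities of these pairs lie in a narrow range above the lower limit, with quartiles of 11.0 and 14.9. What this range did to rho was not tested. Between the untreated list and the Afos untreated lists rho was 0.48 over 38 sites and 0.54 over 81. In 8 pairs the Dex value was more than 10 times the untreated one. The widest gap was at chr4:32657076-32657226, with 11.0 without hormone and 466 with Dex. This site had 315 with both hormones in 7438 and 174 and 107 with Dex in the Afos lists, and was absent from both Afos untreated lists. At chr2:125748657-125748807 the values were 19.1 and 281, with 14.2 and 13.4 in the Afos untreated lists and 147 and 73.0 in the Afos Dex lists.

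Other shared sites with high Dex values were at chr3:21861447-21861597 (14.0 without hormone and 248 with Dex) and chr2:126128921-126129071 (18.3 and 238). They were followed by chr12:81475840-81475990 (11.4 and 216) and chr15:62159956-62160106 (21.4 and 161). The last of these was held by every GR list of 7438 and by both Afos untreated lists, at 19.3 and 16.6. Of these 6 sites, 5 were also in the ER list named untreated, the exception being that of chromosome 12. That list held 40.0% of the 135 Dex sites with an untreated site, and 1.85% of all Dex sites.

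**Figure D2:**
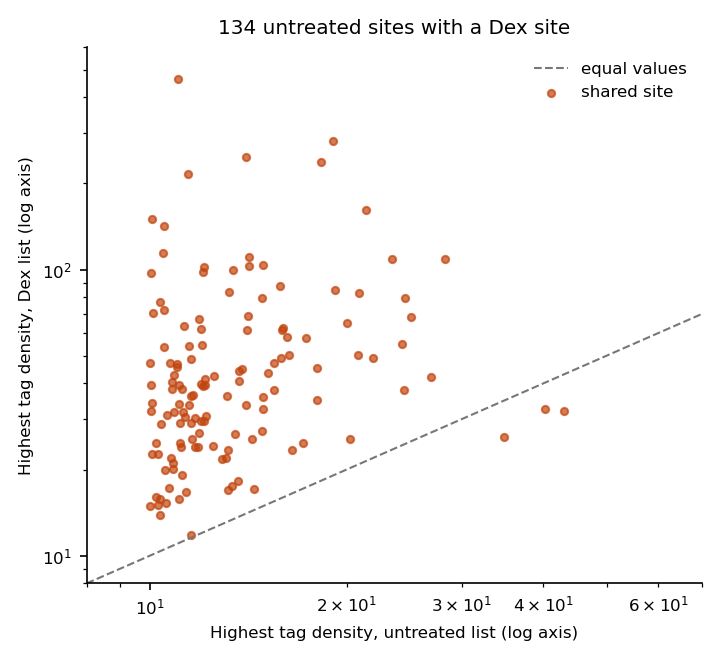
Highest tag density of each of the 134 shared sites without hormone (horizontal axis) and with Dex (vertical axis), both on log scales in deposited units; the dashed line marks equal values. 131 points lie above the line, and the 3 points with the highest untreated values lie below it.

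The 3 strongest untreated sites were those that were lower with Dex. At chr1:12634776-12634926 the highest tag density was 43.0 without hormone, 31.9 with Dex, 30.5 with E2 and 42.0 with both hormones. At chr14:104736077-104736227 it was 40.3, 32.6, 23.6 and 40.9, and at chr5:114623119-114623269 it was 34.8, 26.0, 20.9 and 37.5. Each thus was listed in all 4 GR lists of 7438, with its lowest value under E2. Each was also listed for ER in the same cells, for example with 40.6 in the ER Dex list at the chromosome 5 site. None of the 3 was in an Afos untreated list, and in the Afos Dex lists they had 8.90 and 9.00, 6.57 and 7.58, and, in replicate 2 only, 11.7. What set their density was not tested.

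The next untreated sites behaved otherwise. At chr4:59327996-59328146 the highest tag density was 28.3 without hormone and 109 with Dex, and at chr17:75655422-75655572 it was 25.1 and 68.2. The site at chr12:33866830-33866980 had 26.9 and 42.3. All 3 were in both Afos untreated lists (15.5 and 22.4, 19.6 and 17.2, and 29.1 and 25.8 in the same order of sites as named). All 3 were also in the ER lists of 7438 named untreated, E2 and both hormones. Of all 143 untreated sites, 24.5% were in both Afos untreated lists. These 3 ER lists held 38.5%, 55.9% and 59.4% of the 143.

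Untreated sites lay mostly in the stronger part of the Dex list. Dex sites with an untreated site had a median rank at percentile 75.5 of the Dex list by highest tag density (quartiles 60.4 and 87.4). Dex sites without one stood at 49.6. The stronger 5 deciles of the Dex list held 118 of the 135 shared sites (87.4%). The first shared site was number 33 in the order of strength. Of the 100 strongest Dex sites 1 was shared (interval 0.0253 to 5.45%), and of the 1000 strongest 22 were (2.20%, interval 1.38 to 3.31%), beside 1.12% of all Dex sites.

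The share of Dex sites listed without hormone levelled off among the strong sites. Deciles are equal parts of the Dex list in order of highest tag density. In the weakest decile the share was 0 of 1208, which allows up to 0.305%, and in the next deciles 0.0828%, 0.248%, 0.745% and 0.331%. In the stronger 5 deciles it was 1.24%, 1.82%, 2.15%, 2.40% and 2.15%. The intervals of the last 5 deciles overlap. The decile of strongest sites, from 72.3 to 759 in highest tag density, held 26 shared sites and the one below it 29.

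Presence in the Afos Dex lists and in the GR lists of both hormones rose with strength to nearly all sites. In the Afos Dex lists it went from 26.2% and 7.62% of the weakest decile to 99.8% and 99.1% of the strongest. In the 7438 list of both hormones it went from 13.7% to 99.3%, and in the Afos lists of both hormones from 31.2% and 26.7% to 99.7% and 99.8%. In the GR lists of untreated or E2-treated cells it was at most 2.48% in the strongest decile. Those lists have 95 to 490 sites, so their length limits the share they can hold. Over all Dex sites the shares were 59.8% and 40.3% for the Afos Dex lists and 63.7% for the 7438 list of both hormones. Sites listed in both cell lines also kept much of their order: Spearman's rho of the highest tag density was 0.71 over 7230 Dex sites and Afos replicate 1, and 0.74 over 4868 and replicate 2. These are descriptions across sites. No other list used here held 1971 of the Dex sites (16.3%).

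**Figure D3:**
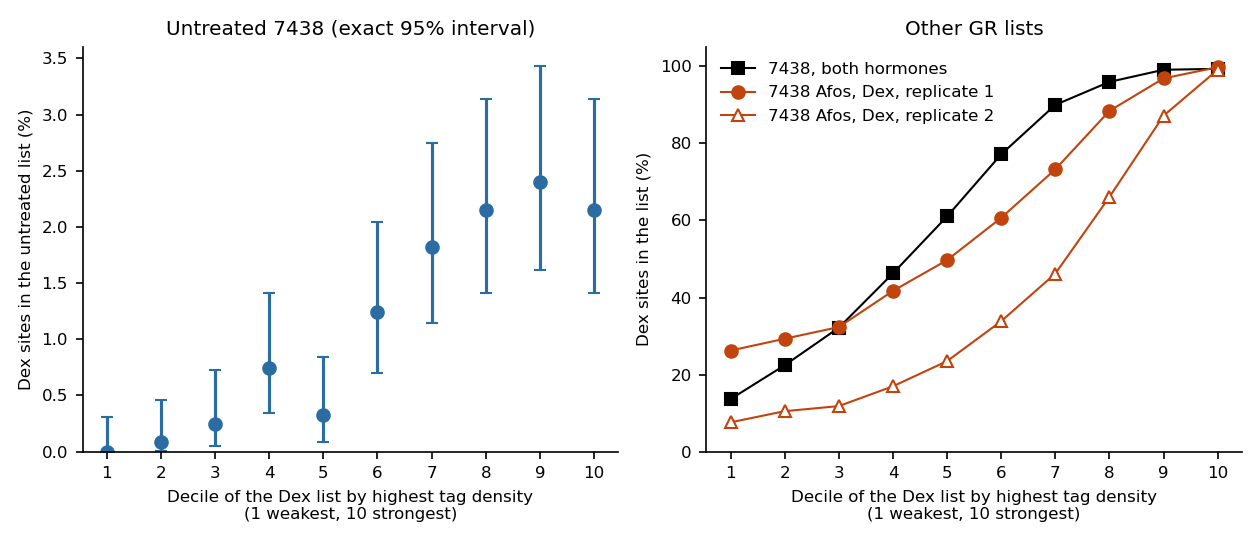
Left, share of Dex sites found in the untreated list (vertical axis, %, with exact 95% intervals) by decile of the Dex list in highest tag density. Right, share of the same sites found in the 7438 list of both hormones and in the 2 Afos Dex lists. The right-hand curves climb to over 99% in the strongest decile, while the untreated share stays at 2.40% or below. The untreated list has 143 sites, which limits the share it can hold. The lists on the right have 5136 to 9503 sites.

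The 9 untreated sites with no Dex site fell into different kinds. Their highest tag density ran from 10.0 to 19.7, with a median of 12.1, the same as for all untreated sites. The 2 on chromosome 18 (19.7 and 12.1) lay 65.5 kb from each other and were in no other list used here, ER lists included. The same holds for the sites at chr16:92828072-92828222 (13.6) and chr9:94182521-94182671 (10.3). The site at chr7:52878958-52879108 (17.3) had 17.6 with E2 and 22.0 with both hormones in the GR lists of 7438, and 20.9 in the ER Dex list. That at chrX:109484392-109484542 (15.8) had 14.0 in the GR list with both. For ER it had 16.0 with both and 12.6 with E2.

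A further 3 of the 9 lay beside a Dex site. The sites at chr11:12131457-12131607, chr12:81480832-81480982 and chr5:91183119-91183269 had centres 217, 171 and 297 bp from the nearest Dex centre. In the Afos Dex lists, whose sites have median widths of 598 and 570 bp, the chromosome 12 site overlapped sites of 55.8 and 54.2, and the chromosome 5 site sites of 37.8 and 32.9. The chromosome 11 site overlapped sites of 19.7 and 11.2 there. In the GR lists of 7438 it had 15.8 with E2 and 20.3 with both hormones. It was also in the ER lists of 7438 named untreated, E2 and both hormones. The chromosome 12 site also overlapped a site of 13.2 in Afos untreated replicate 2. No other of the 9 sites was in an Afos untreated list. Over the 9 sites, the distance to the nearest Dex site had a median of 22.7 kb and reached 132 kb.

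The Dex sites that were also listed without hormone were found far more often in other untreated lists and in ER lists than the rest of the Dex list. The untreated Afos lists held 38 (28.1%, interval 20.8 to 36.5%) and 81 (60.0%, 51.2 to 68.3%) of the 135, against 0.604% and 1.8% of all Dex sites. The 7438 GR list with E2 held 29 (21.5%), against 1.37% of all Dex sites. For ER in 7438 the share was 40.0% in the list named untreated, 57.8% with E2 and 61.5% with both hormones, against 1.85%, 9.85% and 24.9% of all Dex sites. The ER list with Dex held 11 (8.15%), against 1.94%. In no ER list of 7438 were 33 of the 135 (24.4%) and 8805 of the 11949 Dex sites without an untreated site (73.7%).

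GR lists with Dex or both hormones held larger shares of all Dex sites than the untreated and ER lists did. They have 5136 to 14160 sites, against 95 to 373 in the untreated lists. List length thus limits the share that an untreated list can hold. For the GR lists with Dex or both hormones, the ratio between the share of the 135 and that of all Dex sites was smaller. Their shares of the 135 were not all larger: Afos Dex replicate 2 held 48.1%, and the ER list of both hormones held 61.5%. The 7438 list of both hormones held 130 of the 135 (96.3%, 91.6 to 98.8%), against 63.7% of all Dex sites. The Afos Dex lists held 76.3% (68.2 to 83.2%) and 48.1% (39.5 to 56.9%), against 59.8% and 40.3% of all Dex sites. The Afos lists of both hormones held 60.7% (52.0 to 69.0%) and 78.5% (70.6 to 85.1%), against 60.5% and 62.2% of all Dex sites. With E2 alone the Afos GR lists held 3 and 1 of the 135, against 0.513% and 0.215% of all Dex sites. The E2 lists of the 2 cell lines thus stood apart, with 21.5% in 7438 and 2.22% and 0.741% in Afos. Whether site width, list length or the cells set that gap was not tested.

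At matched strength the 135 sites kept the higher share in the untreated lists, the ER lists and the other GR lists of 7438, but not in the Afos lists with Dex or both hormones. Dex sites without an untreated site were weighted to the strength deciles of the 135, a step chosen after seeing the data. Their share was then 11.0% in the ER E2 list, 34.2% in the ER list of both hormones, 2.75% in the ER Dex list and 1.96% in the ER list named untreated. It was 1.48% in the GR E2 list, and 0.410% and 1.46% in the Afos untreated lists. All of these are under the intervals of the 135. For the list of both hormones it was 87.8%, again under the interval. For the Afos Dex lists it was 81.0% in replicate 1, inside the interval of the 135, and 64.3% in replicate 2, above it. For the Afos lists of both hormones it was 79.0% in replicate 1, above the interval, and 83.2% in replicate 2, inside it. For the Afos E2 lists it was 0.709% and 0.306%, both inside wide intervals (0.461 to 6.36% and 0.0188 to 4.06%). Sites of 1 list are not replicates, and these shares carry no test.

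**Figure D4:**
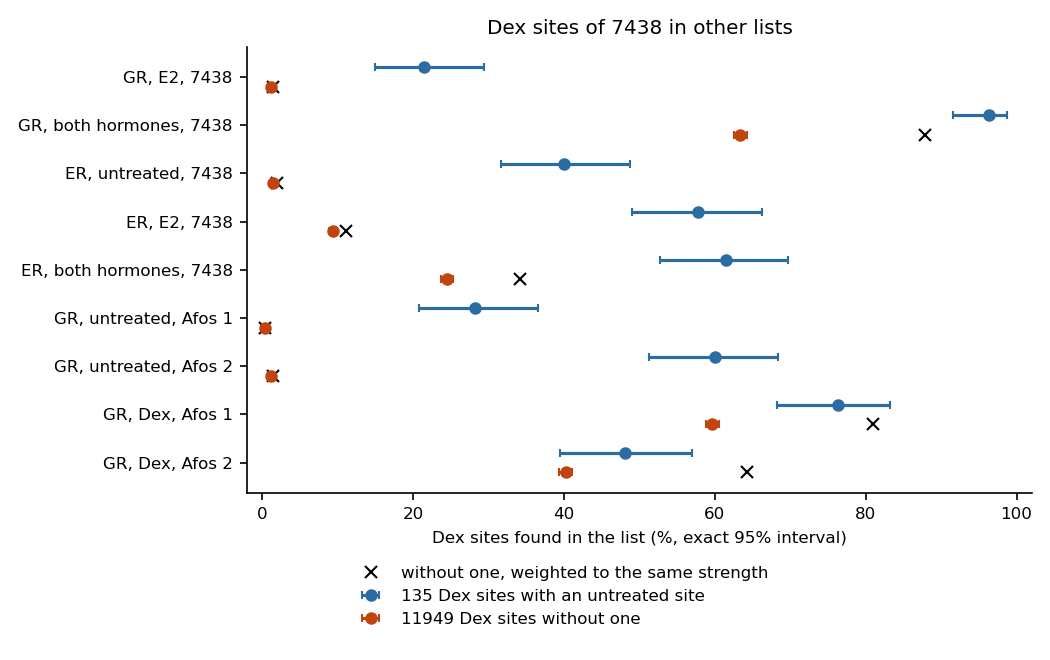
Share of Dex sites found in 9 other lists (horizontal axis, %) for the 135 Dex sites with an untreated site and the 11949 without, with exact 95% intervals; crosses give the latter weighted to the strength of the former. The 135 sites lie well to the right of the crosses in the untreated, E2 and ER lists, and at or to the left of them in the 2 Afos Dex lists.

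Both lists were spread over all autosomes and the X chromosome. Dex sites were most numerous on chromosomes 2 (938), 1 (898) and 11 (806), and fewest on X (162). Untreated sites were most numerous on chromosomes 4, 6 and 12 (13 each, 9.09%), followed by 15 (12) and 1 (11), with 1 each on 19 and X. On chromosome 4 the Dex share was 6.07%, on 6 it was 6.02% and on 12 it was 5.40%, all inside the untreated interval of 4.93 to 15.0%. On chromosome 7 the untreated share was 2.10% (3 sites) and the Dex share 5.74%. For all 20 chromosomes the Dex share lay inside the exact 95% interval of the untreated share. With 143 sites these intervals are wide, and they treat sites as independent. Whether the spread differed was not tested.

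Per length, Dex sites were densest on chromosomes 11 and 15. Taking the span between the first and last Dex site as the length, chromosome 11 had 6.79 sites per Mb, 15 had 6.47 and 19 had 6.12, around a median of 5.07. Among autosomes, 14 had the fewest, 2.97 per Mb, and X had 1.01. The share of Dex sites that were also listed without hormone ran from 0% on X to 1.91% on chromosome 4, beside 1.12% of all Dex sites. These shares rest on few sites, 0 of 162 on X and 14 of 733 on chromosome 4. Whether the share differed between chromosomes was not tested.

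**Figure D5:**
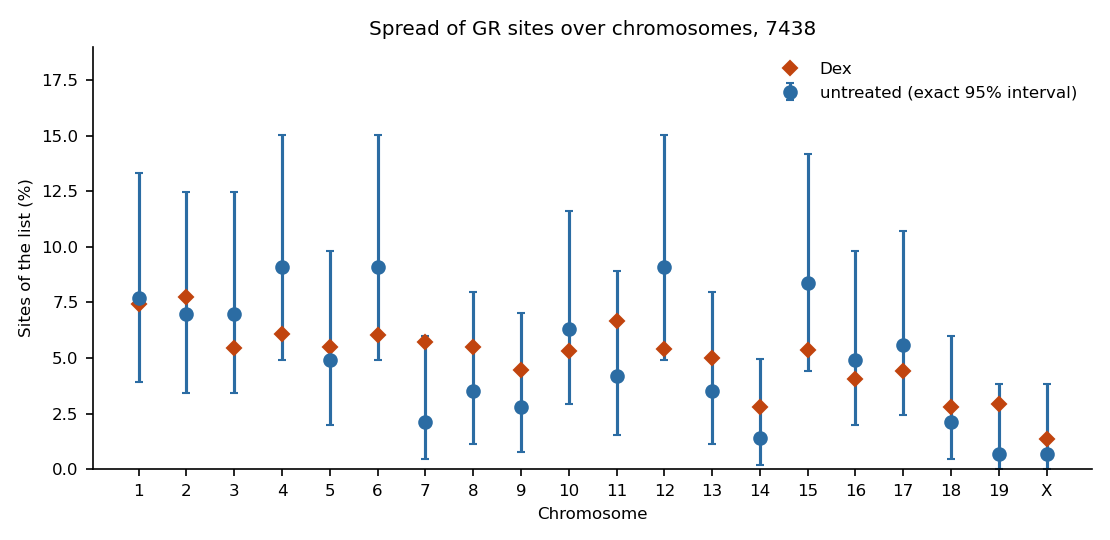
Share of the sites of each list on each chromosome (vertical axis, %), for untreated sites with exact 95% intervals and for Dex sites. Every Dex value lies inside the untreated interval, and chromosomes 4, 6 and 12 hold the largest untreated shares.

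Dex sites came in clusters. The distance between the centres of neighbouring Dex sites had a median of 40.7 kb, with quartiles of 7.64 and 151 kb. Another Dex site lay within 1 kb of 12.6% of sites, within 10 kb of 46.3% and within 100 kb of 85.7%. Joining neighbours up to 10 kb apart gave 2196 runs that held 5594 sites, of which 1485 runs were pairs and 107 had at least 5 sites. Each site also carries a deposited parent number, and what it stands for was not checked. Of the Dex sites, 905 had the same parent number as another, over 452 such numbers.

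The longest run lay on the X chromosome, which otherwise held few sites: 11 Dex sites at chrX:137040447-137079538, with highest tag densities from 11.5 to 116. The next, at chr17:44151229-44180076, had 10 sites from 15.2 to 317, of which 1 was shared with the untreated list. There were 5 runs of 9 sites. That with the highest z-score and tag density, at chr17:28649867-28659145, took in the strongest Dex site and spanned 9.28 kb, with values from 27.3 to 759 and none of its sites in the untreated list. Another of the 5, at chr2:125748092-125774063, had values from 14.0 to 281 and 2 sites shared with the untreated list. The other 3 had none. Of the 107 runs with at least 5 Dex sites, 13 had an untreated site. Over all Dex sites 1.12% were shared, a share per site and not per run. Whether long runs differed from that share was not tested.

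Strong Dex sites and those also listed without hormone had closer neighbours. The share with another Dex site within 10 kb went from 32.7% in the weakest decile to 62.9% in the strongest. Among Dex sites with an untreated site it was 73.3% (interval 65.0 to 80.6%), with a median distance to the nearest Dex site of 3.64 kb. Among those without it was 46.0%, with a median of 12.7 kb, and 52.0% when weighted to the strength deciles of the former.

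Untreated sites were sparse, yet some stood together. Neighbouring untreated sites lay a median of 5.07 Mb apart, and 24 of the 143 (16.8%, interval 11.1 to 23.9%) had another within 10 kb. As many of the strongest Dex sites had a median of 6.76 Mb, and 11 of them (7.69%, 3.90 to 13.3%) had another within 10 kb, so the intervals overlap. The lower quartile of the distances was 0.269 Mb for untreated sites and 1.75 Mb for those Dex sites. Joining untreated sites up to 500 kb apart, a limit chosen after their values were seen, gave 3 groups of 4. They lay at chr15:62118920-62490513 (10.5 to 24.6 in highest tag density), chr2:125748748-126136036 (15.9 to 20.3) and chr12:9846115-10334820 (10.5 to 15.8). The first and second of these groups hold 3 of the 6 shared sites with the highest Dex values named above.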

How the data were processed

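ChIP-seq of GR was used from 12 lists of 7438 and 7438 Afos cells, and ChIP-seq of ER from 4 lists of 7438 cells. The submitters' processing notes name CASAVA 1.8 and build mm9. For the aligner, peak caller, control and threshold, the choice is not given in the sources used here. Per the file headers, each site carries its highest and average tag density, a signal of the authors whose scaling is not stated, and a z-score, the authors' score. The deposited p-value of the Afos lists was not used. Positions are printed as the lists give them.

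Groups in the labels were kept, but 7438 lists were read by their names. Sites were matched by an overlap of at least 1 bp. Intervals are exact (Clopper-Pearson) and cover counting error only. Sites were ranked within a list by their highest tag density, and deciles are equal parts of the Dex list. The overlap, spacing and run steps were checked on simulated sites. The sites named are the 6 strongest of the Dex list, of the untreated list, of the shared sites, of the untreated sites alone and of the Dex sites alone, and the 3 runs with the most sites, with the tie of 5 runs at the third place settled by the higher z-score and 1 more of them named after its values were seen; the 6 strongest Dex sites and the 6 strongest Dex sites alone are the same. Of the untreated sites alone all 9 are given, 3 of them beyond the rule and chosen after their values were seen. The members and the lists used beside them were chosen with earlier results of these data known. Alternatives were other overlap rules, limits on density and z-score, the sample labels, equal numbers of sites, other gaps, other ranks and leaving out each Afos replicate. Weighting by strength, and leaving out untreated sites shared with Afos, were added after the data were examined. Sites carry no gene names or sequences, because an mm9 annotation was not used here. Scripts ran under pandas 2.3.3, SciPy 1.17.1 and NumPy 2.4.6 (Python 3.11.15), with plots by matplotlib 3.10.9.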

Additional observations from a re-analysis of the deposited data

How the results depend on the processing

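Of 39 alternative values, 13 stayed within the 95% interval of the value reported and 26 moved beyond it. The settings change which sites or lists are counted, how sites are matched, joined or ranked, or how they are weighted. Why a value moved was not tested. Requiring a highest tag density of at least 20 gave 396 times as many Dex as untreated sites (16 untreated sites were left), placed 100% of untreated sites in the Dex list and 0.252% of Dex sites in the untreated list. It gave median densities of 36.0 and 24.4, a median distance between Dex sites of 68.1 kb, and a largest chromosome share of 25% of untreated sites. A z-score of at least 30 gave median densities of 22.4 and 13.2. With the sample labels followed, the untreated list is the one named for both hormones: the ratio was then 1.27, 81.1% of untreated sites were in the Dex list, 63.7% of Dex sites were in the untreated list, and the untreated median density was 18.2. Against as many of the strongest Dex sites as there are untreated sites, 1.40% of untreated sites were found, and the median distance between those Dex sites was 6756 kb. Gaps of 5 and 25 kb put 35.3% and 62.9% of Dex sites in runs. Without untreated sites found in an Afos untreated list, 86.4% of the other 59 were in the Dex list. Weighting by strength moved the shares of Dex sites without an untreated site from 9.31 to 11.0% (ER, E2), 1.41 to 1.96% (ER, untreated), 63.3 to 87.8% (GR, both hormones), 1.14 to 1.46% (Afos untreated, replicate 2), 59.6 to 81.0% and 40.2 to 64.3% (Afos Dex). At least 1 Afos Dex list held 60.5% of Dex sites, and single lists 40.3 to 59.8%; at least 1 Afos untreated list held 58.7% of untreated sites, and single lists 26.6 to 56.6%. No paired analysis was possible because each treatment of 7438 had 1 list and no test was run. List lengths depend on depth, which is unknown.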
